A study of Mus musculus with 11 samples.

Results

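The AP-1 and stress-response transcription factors described here are 10 genes chosen by name from the 24421 genes in the count tables. They and the gene lists used below were chosen with earlier results of these data known. Counts of them beside shares of all genes are therefore a description only. The 10 are the Fos proteins *Fos*, *Fosb*, *Fosl1* and *Fosl2*, the Jun proteins *Jun*, *Junb* and *Jund*, and their relatives *Atf3*, *Batf* and *Maff*. All encode basic leucine zipper (bZIP) proteins, which grip DNA as pairs. A Fos and a Jun protein together form AP-1, which binds the letters TGANTCA. Growth factors, wounding and cell stress switch on *Fos*, *Fosb*, *Jun*, *Junb* and *Atf3* within minutes through MAP kinases, serum response factor (SRF) and CREB-like factors, and the mRNAs of these immediate early genes are short-lived. In epidermis, AP-1 controls keratinocyte proliferation, differentiation and the migration that closes a wound. *Fosl1* is known from the moving edges of epithelia.

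The study asks how Grainyhead-like 3 (GRHL3), an epidermal transcription factor, acts in keratinocytes at a skin wound. RNA was sequenced from C57BL/6 mice of both sexes at an age of 8 weeks, 3 days after punch wounds of 4 mm. WT animals carried *Krt14*-Cre, and their littermates carried *Krt14*-Cre with floxed *Grhl3* alleles (*Grhl3*-cKO). Cre from the *Krt14* promoter acts in *Krt14*-expressing keratinocytes, so other skin cells keep the gene. Skin from wound margins or from distal unwounded sites was digested with warm trypsin for 2 hours on a shaker in all groups. Cells positive for the integrin CD49F were then sorted, and cells with leukocyte, endothelial or erythroid surface markers were discarded. RNA made during these steps cannot be told apart from RNA already present in the skin. There were 2 libraries each from WT unwounded, WT wounded and cKO wounded skin, and 1 from cKO unwounded skin. Open chromatin was mapped by ATAC-seq with 1 library for each of the 4 conditions, each pooled from 4 wounds of 2 mice, so the regions have no replicates.

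Gene counts summed to 15488699 and 16807451 in the WT unwounded libraries and to 16653948 and 15418631 in the WT wounded libraries. The cKO unwounded library held 13497283 counts, and the cKO wounded libraries held 15223569 and 14279568. At these depths a floor of 3 counts equals 0.178 to 0.222 CPM, counts scaled by library total, a limit that covers counting error only. The keratinocyte label fits the high level of *Krt14*, the keratin of basal cells, which ran from 12190.4 to 19442 CPM. Markers of other cells were low but not absent. The leukocyte genes *Cd3e* and *Fcer1g* were at 0 in the 7 libraries, but the leukocyte markers together summed to between 25.2 and 51.5 CPM. Fibroblast markers summed to between 88.7 and 148 CPM.

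The knockout label was not visible in the gene counts. *Grhl3* stood at 122 and 83.2 CPM in WT unwounded, 109.9 and 90.0 in WT wounded, 76.2 in cKO unwounded and 116 and 104 in cKO wounded libraries. The cKO wounded values lay among the WT values, and the cKO unwounded value lay below them. Counts per gene do not show which exons were read, so these libraries are called cKO by their label. The study itself checked the deletion in its *Grhl3*-cKO mice by quantitative PCR of the floxed region and by GRHL3 staining of the wound front.

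The cKO unwounded library stood apart from the other 6. It held 14854 counts of *Xist*, the RNA that silences an X chromosome in female cells, and the other libraries held between 3 and 32. The 10 AP-1 and stress genes together made up 1.56% of its counts, against 0.738% to 1.06% elsewhere. It had the highest CPM of the 7 libraries for 7 of the 10 genes, and for 7 of the 9 that could be tested, where 16.7% of all 14045 tested genes had their highest CPM there. With 1 library, a condition, a sex and a single animal cannot be told apart. Where a tested difference of the 10 genes changes with it, the value without it is given.

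Levels of different genes can be compared only per length, here as CPM per kb of exon. *Fos* had the highest mean over the 7 libraries at 826 CPM per kb ± 267 (SD, n = 7), followed by *Jun* at 791 ± 198 and *Atf3* at 727 ± 217. Their ranges over the libraries overlapped. *Junb* at 368, *Jund* at 327 and *Fosb* at 281 CPM per kb followed, with ranges that overlapped each other and that of *Atf3*, and the range of *Jund* overlapped *Jun* too. A gap of 4.54-fold in means separated *Fosb* from *Fosl1*, the next gene down at 61.9 CPM per kb. *Fosl2* at 46.1 overlapped *Fosl1*, and *Maff* at 23.9 lay under both. *Batf* averaged 0.0879 CPM per kb. This order depends on the transcript chosen. With the longest RefSeq transcript in place of merged exons, *Fosb* stood at 465 and *Junb* at 460.4 CPM per kb, and *Jund* at 189.8. On that scale *Atf3* at 792 stood just above *Jun* at 791, and *Fosl2* at 76.1 above *Fosl1* at 73.8.

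**Figure D1:**
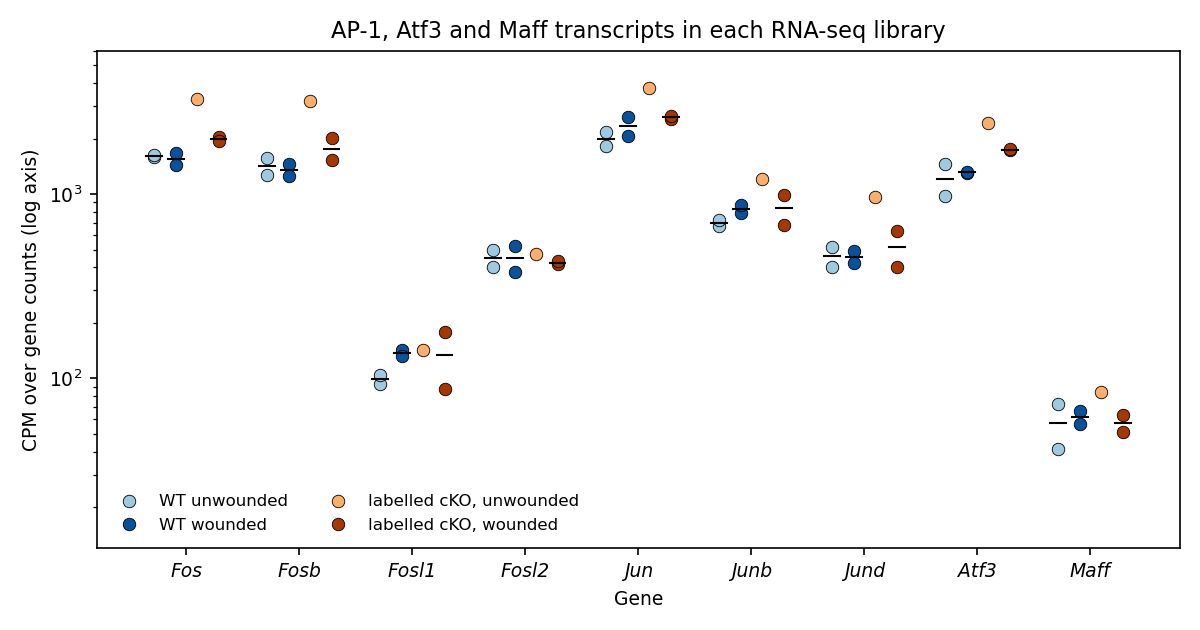
CPM of each gene (log axis) in each library, by genotype and wounding, with points for libraries and bars for group means. The lone cKO unwounded library is the highest point for *Fos*, *Fosb*, *Jun*, *Junb*, *Jund*, *Atf3* and *Maff*.

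Among the Fos proteins, *Fos* carries a strong activation domain and is the classic immediate early gene. It stood at 1594 and 1625 CPM in WT unwounded, 1436 and 1681 in WT wounded, 3287 in cKO unwounded and 2041 and 1932 in cKO wounded libraries. The WT groups overlapped, both cKO wounded libraries lay above every WT library, and the cKO unwounded library was the highest. *Fosb*, its close relative, gave 1576 and 1263 CPM in WT unwounded, 1453 and 1247 in WT wounded, 3218 in cKO unwounded and 2008 and 1522 in cKO wounded libraries. One cKO wounded library lay within the range of the WT unwounded libraries, though both lay above the WT wounded libraries.

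*Fosl1* (FRA-1) lacks the activation domain of FOS and is induced more slowly. It had 93.1 and 104 CPM in WT unwounded, 143 and 132 in WT wounded, 143 in cKO unwounded and 179 and 87.7 in cKO wounded libraries. Both WT wounded libraries were above both WT unwounded libraries, while the cKO wounded pair held the highest and the lowest of the 7 values. Exons of *Fosl1* share 1055 bases with *Ccdc85b* on the opposite strand, and how the counts treated strand is not stated. *Fosl2* (FRA-2), which is linked to epidermal differentiation, ranged from 379 to 521 CPM. Its highest and lowest values were both from WT wounded libraries.

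*Jun*, the strongest activator of the Jun proteins, measured 2167 and 1835 CPM in WT unwounded, 2606 and 2064 in WT wounded, 3773 in cKO unwounded and 2564 and 2647 in cKO wounded libraries. The WT groups overlapped, and so did the wounded groups of the 2 genotypes. *Junb*, which restrains proliferation and inflammation in epidermis, gave 668 and 727 CPM in WT unwounded, 785 and 869 in WT wounded, 1210.5 in cKO unwounded and 992 and 679 in cKO wounded libraries. Both WT wounded libraries were above both WT unwounded ones, and the cKO wounded pair spanned the WT wounded values. *Jund*, the most steadily expressed Jun protein in many tissues, gave 518 and 403 CPM in WT unwounded, 489.9 and 423 in WT wounded, 962 in cKO unwounded and 628 and 400.3 in cKO wounded libraries. Apart from the high cKO unwounded library, its groups overlapped. *Junb* exons share 173 bases with the neighbouring gene *Prdx2*.

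*Atf3*, a stress-induced factor that represses transcription as a homodimer, had 1447 and 979.8 CPM in WT unwounded, 1308 and 1311 in WT wounded, 2441 in cKO unwounded and 1725 and 1753 in cKO wounded libraries. All 3 cKO libraries lay above all 4 WT libraries. *Maff*, a small Maf protein without an activation domain that pairs with NRF2 and with Fos proteins, ranged from 41.1 to 84.1 CPM, and its groups overlapped apart from the highest value in the cKO unwounded library. *Batf*, a partner of Jun proteins best known from T cells and dendritic cells, had 0 counts in the unwounded libraries of both genotypes, 3 in each WT wounded library, and 0 and 7 in the cKO wounded libraries. These counts are at or near the floor, and *Batf* was too low to be tested.

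The first comparison asks how the genes differed in WT keratinocytes at the wound margin. *Fosl1* had the largest positive difference of the 9 tested genes in log2 terms, 0.50 (SE 0.26, unadjusted P = 0.0682, adjusted p of edgeR's quasi-likelihood test 0.984), with both wounded libraries above both unwounded ones. *Junb* and *Jun* had log2 differences of 0.27 and 0.25, and *Atf3* and *Maff* of 0.13 each. *Fos* stood at −0.02 and *Fosb* at −0.05. *Fosl2* at 0.02 and *Jund* at 0.01 were above 0, but both were below 0 when libraries were scaled by their totals alone.

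Of the 9 genes, edgeR gave 0 an unadjusted P under 0.05 in this comparison, where 4.84% of all tested genes had one, and 0 an adjusted p under 0.05, where 0.0285% did. DESeq2 also called 0 of the 9 at the adjusted threshold, and 24 of all 14045 genes. The WT wounded libraries did not overlap the unwounded ones and were higher for 2 of the 9, *Fosl1* and *Junb*, a pattern that 15.2% of all tested genes showed. The median log2 difference was 0.13 for the 9 genes and 0.00 for all genes. In bulk libraries such as these, fewer cells of a type and less RNA per cell cannot be told apart. Replicates differed by far more than counting error, with a biological coefficient of variation of 31.6% over all genes.

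Single libraries set several of these WT values. The sign turned for *Fos*, *Fosb*, *Fosl2*, *Jund*, *Atf3* and *Maff* when 1 WT library or another was left out. Without the first WT unwounded library, *Atf3* stood at 0.46 (unadjusted P = 0.0352) and *Maff* at 0.61 (0.0394). Without the second WT wounded library, *Jun* stood at 0.39 (0.0407). *Fosl1* had an unadjusted P of 0.00935 without the first cKO wounded library and 0.00921 without the second, which enter only the estimate of spread, 0.00968 with the 4 WT libraries alone and 0.00812 without a filter on low counts.

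**Figure D2:**
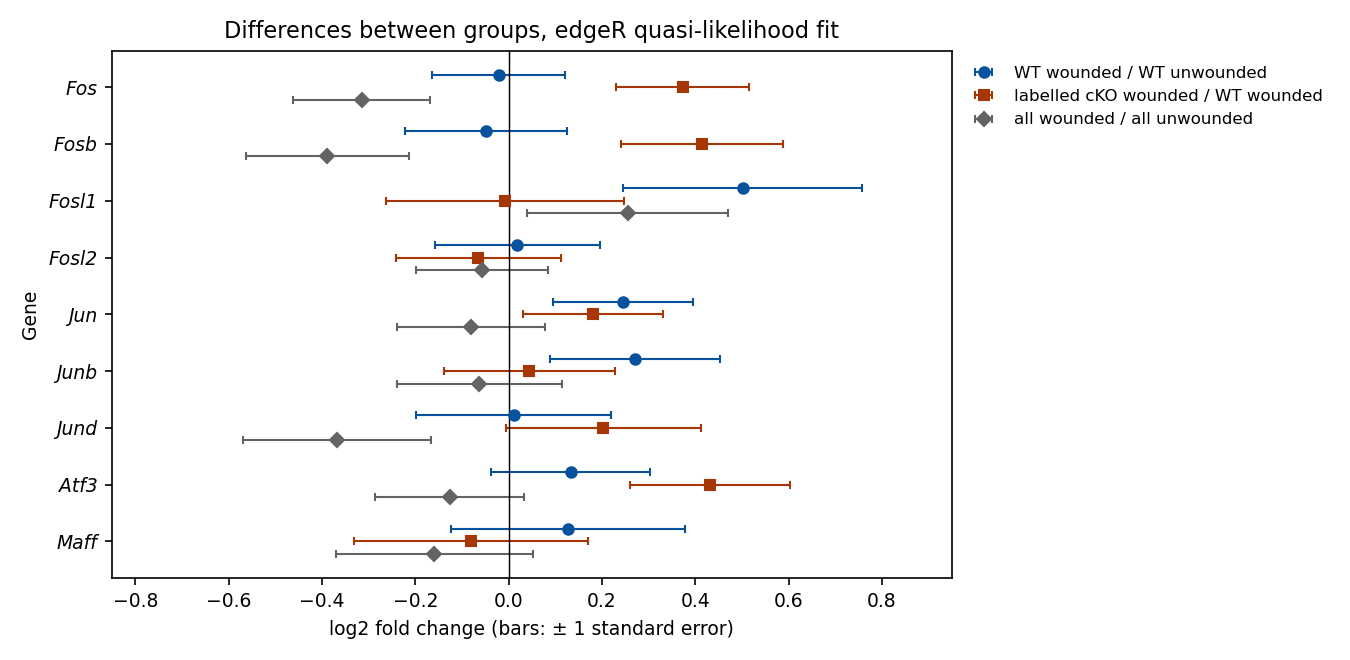
Log2 fold change of each tested gene with its standard error for the 3 tested comparisons. The cKO wounded against WT wounded values of *Fos*, *Fosb* and *Atf3* sit at 0.37, 0.41 and 0.43.

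Next, cKO wounded keratinocytes were set against WT wounded keratinocytes, to ask which genes differed with the label at the wound. *Fos*, *Fosb* and *Atf3* were higher in both cKO wounded libraries than in both WT wounded libraries. The log2 differences were 0.37 for *Fos* (SE 0.14, unadjusted P = 0.0191), 0.41 for *Fosb* (SE 0.17, unadjusted P = 0.0302) and 0.43 for *Atf3* (SE 0.17, unadjusted P = 0.0230). None of these passed Benjamini-Hochberg adjustment over all genes in edgeR's quasi-likelihood test, with an adjusted p of 1 for each. The other 6 tested genes lay between −0.08 for *Maff* and 0.20 for *Jund*. *Jun*, at 0.18, had overlapping groups.

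So 3 of the 9 genes had an unadjusted P under 0.05, where 4.04% of all tested genes did, and all 3 were higher, where 1.96% of all genes were called higher. The groups did not overlap and were higher in cKO for the same 3 genes, against 13.8% of all genes. After adjustment edgeR called 0 of the 9 and 0 of all genes (0%), and DESeq2 called 3 genes, none of the 9. Leaving out the cKO unwounded library, which this comparison uses only to estimate spread, kept the 3 differences at 0.37, 0.42 and 0.43, with unadjusted P of 0.0230 for *Fos*, 0.0421 for *Fosb* and 0.0333 for *Atf3*. With the 4 wounded libraries alone *Fosb* had an unadjusted P of 0.0512.

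All of the wounded libraries but the second cKO one carry some of these calls. Without the first WT wounded library, *Fos* had a log2 difference of 0.26 (unadjusted P = 0.169) and *Atf3* an unadjusted P of 0.0641. Without the second WT wounded library, *Fosb* had 0.32 (unadjusted P = 0.142). Without the first cKO wounded library, the unadjusted P was 0.0568 for *Fos*, 0.338 for *Fosb*, whose log2 difference was then 0.17, and 0.0614 for *Atf3*. Leaving out the second cKO wounded library instead gave log2 differences of 0.44 for *Fosl1* and 0.52 for *Jund*. The signs of *Fosl1*, *Fosl2*, *Junb*, *Jund* and *Maff* turned when 1 wounded library or another was left out. In the second cKO wounded library, which alone remains without the first, *Fosl1* was at 87.7 CPM. That lies below the WT wounded libraries, at 143 and 132 CPM. A lone library in a group was assumed to vary like the others.

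Wounded and unwounded libraries of both genotypes were then compared in a model with a term for genotype, which shares its WT libraries with the first comparison. *Fos* was lower with wounding at a log2 difference of −0.31 (SE 0.15, unadjusted P = 0.0493) and *Fosb* at −0.39 (SE 0.17, unadjusted P = 0.0424). *Jund* had −0.37 (SE 0.20, unadjusted P = 0.0879) and *Fosl1* had 0.26. That is 2 of 9 genes with an unadjusted P under 0.05, against 6.61% of all genes, both lower, against 2.93% of all genes called lower. After adjustment edgeR called 0 of the 9 and 0.0356% of all genes, and DESeq2 called 0 of the 9 and 126 of all 14045 genes.

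These values join the WT response with that of cKO, which has 1 unwounded library. Without that library no cKO response can be estimated and the model repeats the WT comparison, in which *Fos* stood at −0.02 and *Fosb* at −0.05. So that fit is no check of the joint values. With a replicate block the unadjusted P was 0.0831 for *Fos* and 0.0319 for *Fosb*, with RLE scaling 0.0529 and 0.0448, and with at least 10 counts in every library 0.0667 and 0.0569. *Jund* had 0.00671 without a filter on low counts. With the cKO unwounded library kept, the unadjusted P of *Fos* was above 0.05 without the first WT wounded library (0.0625), the first cKO wounded library (0.107) or the second cKO wounded library (0.125). That of *Fosb* was above it without the first WT unwounded library (0.0900), the second WT wounded library (0.0620), the first cKO wounded library (0.0662) or the second cKO wounded library (0.120).

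The wound response within cKO mice has a single unwounded library, so it is described without a test. Both cKO wounded libraries were below it for *Fos* (log2 differences −0.66 and −0.82), *Fosb* (−0.65 and −1.13), *Jun* (−0.53 and −0.56) and *Atf3* (−0.47 and −0.53). *Jund*, at −0.59 and −1.31, had the widest gap of the 9 as a mean and in the second wounded library, while *Fos* and *Fosb* lay further below in the first. *Junb* at −0.26 and −0.88, *Maff* at −0.39 and −0.78 and *Fosl2* at −0.16 and −0.18 were below the unwounded library too. *Fosl1* was above it in one wounded library and below in the other. None of the 9 was at least 2-fold apart in both wounded libraries, a rule that 9.58% of all genes met. With a rule of 1.5-fold, *Fos*, *Fosb* and *Jund* were lower in both wounded libraries, as 8.12% of all genes were.

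*Junb* was higher in both WT wounded libraries than in the WT unwounded ones and lower in both cKO wounded libraries than in the cKO unwounded one. It was the 1 of the 9 to do so, where 4.60% of all tested genes had this pattern and 5.98% its reverse. Whether its wound response differs between the genotypes was not tested, because 1 unwounded cKO library supports the cKO side alone.

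Across the 7 libraries several of the genes moved together, as a description only. *Fosb* and *Jund* had a Pearson r of 0.967 over 7 libraries on the log2 scale, and 0.882 without the cKO unwounded library. For *Jun* and *Atf3* r was 0.928, and 0.841 without that library. *Fos* and *Fosb* gave 0.923, and 0.674 without it. *Fosl1* went most closely with *Junb*, at 0.818 with that library and 0.950 without it. These points share library depth and the one high library.

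By the same measure, over 8876 genes, the genes most like *Fos* were *H2-D1*, which encodes a class I histocompatibility antigen (r = 0.989, and 0.979 without the cKO unwounded library), *Bace2*, a membrane protease (0.987 and 0.941), and *Tubb4b*, a beta-tubulin (0.979 and 0.934). For *Jun* they included *Lnpep*, an aminopeptidase (0.976 and 0.938), and *Tiam1*, an activator of RAC1 (0.975 and 0.953). For *Atf3* they were *Il1r2*, the decoy receptor for interleukin 1 (0.981 and 0.983), *Ocrl*, an inositol phosphatase (0.959 and 0.923), and *Dsc3*, a desmosomal cadherin (0.957 and 0.930). An r over 0.9 was reached by 91 genes for *Fos*, 94 for *Jun* and 79 for *Atf3*.

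Other immediate early and growth-factor response genes form the group closest in regulation, and all 34 on the list were tested. Their summed level was 12599 and 11489 CPM in WT unwounded, 14123 and 12094 in WT wounded, 21590.3 in cKO unwounded and 15349 and 13322 in cKO wounded libraries. The cKO unwounded library was again the highest, and it was the highest for 22 of the 34 genes, against 16.7% of all tested genes. *Egr1*, a zinc finger factor and the most abundant of them, had 1538 and 1508 CPM in WT unwounded, 1846 and 1655 in WT wounded, 3271 in cKO unwounded and 1862 and 1699 in cKO wounded libraries.

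In WT wounding 3 of the 34 were higher and 0 lower at an unadjusted P under 0.05 in edgeR, against 3.18% and 1.67% of all 14045 genes. DESeq2 gave 5 and 0, against 500 and 235 of all 14045 genes, and neither tool called any of the 34 after adjustment. The median log2 difference was 0.12, and 0.00 for all genes. The 3 were the orphan nuclear receptors *Nr4a3* (0.92, unadjusted P = 0.00153) and *Nr4a2* (0.91) and the antiproliferative gene *Btg2* (0.39). *Nr4a3* rested on the first WT wounded library, with 588 CPM against 286 in the second, and stood at 0.32 without it (unadjusted P = 0.132). *Nr4a2* stood at 0.52 (0.107) without the first WT unwounded library and at 1.45 without the second. *Btg2* stood at 0.21 (0.281) without the first WT wounded library, and had an unadjusted P of 0.0968 without the first and 0.0964 without the second WT unwounded library. Without the first WT wounded library the list had 1 higher, 2 lower and a median of −0.02. It had 6 higher without the second, 5 without either cKO wounded library, and a median of 0.02 without the second WT unwounded library.

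Between wounded libraries edgeR called 3 of the 34 higher in cKO and 0 lower, against 1.96% and 2.08% of all genes. DESeq2 gave 3 and 1, against 279 and 277 of all 14045 genes. The 3 by edgeR were *Nr4a1* (0.43), the differentiation factor *Klf4* (0.38) and *Dusp1*, a phosphatase that switches off MAP kinases (0.42). Without the first cKO wounded library they stood at 0.22 (unadjusted P = 0.249), 0.13 (0.427) and 0.06 (0.699). They stood at 0.26 (0.214), 0.30 (0.166) and 0.47 (0.0538) without the second WT wounded library. *Klf4* also had an unadjusted P of 0.0530 and 0.0553 without the first and the second WT unwounded library. *Dusp1* kept its call in 1 of 7 leave-one-out fits, at 0.71 without the second cKO wounded library, where *Klf4* stood at 0.60. Its unadjusted P was 0.117 without the first WT wounded, 0.0505 without the first WT unwounded, 0.0531 without the second WT unwounded and 0.0519 without the cKO unwounded library. The median was 0.08, and −0.01 for all genes. Without the first cKO wounded library 2 were higher and 2 lower with a median of −0.05, and without the second 7 were higher with a median of 0.16. The second WT wounded library left out gave 1 higher and 4 lower with a median of −0.01, and the first a median of 0.24. Without the first WT unwounded, the second WT unwounded or the cKO unwounded library the numbers higher were 1, 1 and 2.

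In both genotypes 1 of the 34 was higher, the stress gene *Gadd45b* (0.47), and 4 were lower, against 3.69% and 2.93% of all genes. Among the 4 were the matricellular gene *Ctgf* (−0.78) and the cytokine inhibitor *Socs3* (−0.34). In WT alone, which is all that is left without the cKO unwounded library, these stood at 0.21 (unadjusted P = 0.301), −0.30 (0.337) and −0.24 (0.146). *Gadd45b* also had an unadjusted P of 0.0509 without the second cKO wounded library, and *Socs3* of 0.0836 without the first WT unwounded library. The number lower was 1 and 7 without the first and the second WT unwounded library, 9 and 2 without the first and the second WT wounded library, and 2 without the second cKO wounded library. The number higher was 2 without the second WT wounded library. The median was −0.14, and −0.05 without the second cKO wounded, −0.25 without the second WT unwounded and −0.25 without the first WT wounded library.

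Of the 27 tested bZIP factors outside the 10, 2 were higher and 1 lower in WT wounding at an unadjusted P under 0.05, against 3.18% and 1.67% of all genes. Higher were *Crem*, a cAMP-response factor (1.02), and *Maf* (0.60), and *Cebpa*, a factor of epidermal differentiation, was lower (−0.38). *Crem* stood at 0.73 (unadjusted P = 0.152) without the second WT unwounded and at 0.81 (0.134) without the first WT wounded library. *Maf* stood at −0.06 (0.808) without the second WT wounded, 1.04 without the first WT wounded and 0.38 (0.268) without the first WT unwounded library. Its unadjusted P was 0.0635 and 0.0701 without the first and the second cKO wounded library. *Cebpa* stood at −0.19 (0.424) without the second WT unwounded and −0.27 (0.245) without the first WT wounded library, and had an unadjusted P of 0.0513 without the first cKO wounded library. Without the cKO unwounded library the unadjusted P was 0.0650 for *Maf* and 0.0555 for *Cebpa*, so 1 of 26 was higher and 0 lower. The first WT wounded library left out gave 2 lower.

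*Cebpa* was the 1 bZIP factor higher in cKO against WT wounded libraries (0.44) and 0 were lower with edgeR or DESeq2, against 1.96% and 2.08% of all genes. It stood at 0.35 (unadjusted P = 0.125) without the first cKO wounded and 0.32 (0.162) without the first WT wounded library. The counts were 0 and 2 without the first cKO wounded, 0 and 1 without the first WT wounded, 2 and 0 without the second cKO wounded, and 2 and 2 without the second WT wounded library. In both genotypes 2 were higher, *Crem* (0.78) and *Bach1*, a partner of small Maf proteins (0.35), against 3.69% of all genes. *Crem* stood at 0.59 (0.105) and *Bach1* at 0.30 (0.0961) without the second WT unwounded library, and at 0.63 (0.101) and 0.29 (0.0961) without the first WT wounded library. *Bach1* stood at 0.27 (0.0783) without the second cKO wounded library and at 0.28 (0.161) in WT alone. The medians were 0.01, −0.08 and −0.03. *Atf4*, the most abundant of these factors, ranged from 364 to 588 CPM.

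Upstream of the 10 genes, 28 MAP kinase and SRF pathway genes were tested. In WT wounding 2 were higher and 0 lower with edgeR and DESeq2 alike, against 3.18% and 1.67% of all genes with edgeR. They were the kinase *Map2k1* (0.55) and the SRF partner *Elk3* (1.17), the latter at 24.1 CPM in the second WT wounded library against 6.73 in the first. They stood at 0.29 (unadjusted P = 0.313) and −0.05 (0.933) without the second WT wounded library, and *Elk3* at 1.81 without the first. Without the second WT unwounded or the first WT wounded library 1 gene was lower. Their unadjusted P was 0.124 and 0.0662 without the first WT unwounded library, and 0.0641 and 0.105 without the second. The p38 kinase kinase *Map2k6* was higher (0.79) and the SRF coactivator *Mkl1* lower (−0.51) in cKO against WT wounded libraries, against 1.96% and 2.08% of all genes. *Map2k6* stood at 0.41 (0.375) without the second cKO wounded and 0.57 (0.201) without the second WT wounded library. Its unadjusted P was 0.0536 without the cKO unwounded library, where 0 were higher and 1 lower. *Mkl1* stood at −0.39 (0.124) without the second cKO wounded and −0.49 (0.0657) without the first WT wounded library. The counts higher and lower were 2 and 1 without the second WT unwounded or the first WT wounded library, 0 and 2 without the second WT wounded library, and 0 and 0 without the second cKO wounded library. In both genotypes *Map2k1* (0.57) and *Elk3* (1.09) were higher and 0 lower with edgeR and DESeq2 alike, against 3.69% and 2.93% of all genes. They stood at 0.44 (0.0530) and 0.46 (0.302) without the second WT wounded library, and *Elk3* had an unadjusted P of 0.0503 without the first cKO wounded library. The number lower was 2 without the second WT unwounded library, and 1 without the first WT wounded or the second cKO wounded library. The medians were 0.04, −0.07 and −0.02. *Egfr*, the receptor for epidermal growth factor and the most abundant of the list on average, ranged from 242 to 321 CPM. In the cKO libraries *Map3k1* was higher than *Egfr*, at 329 CPM in unwounded and 262 and 280 CPM in wounded cells.

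Of 16 heat shock and unfolded protein genes, 0 had an unadjusted P under 0.05 in WT wounding with edgeR or DESeq2, against 4.84% of all genes with edgeR, and 1 was higher without the second WT wounded library. The small heat shock gene *Hspb8* (0.72) and the co-chaperone *Dnajb1* (0.38) were higher in cKO against WT wounded libraries, against 1.96% of all genes. *Hspb8* kept its call in all 7 leave-one-out fits, while *Dnajb1* stood at 0.30 (unadjusted P = 0.154) without the second cKO wounded and 0.25 (0.245) without the first WT wounded library. *Hspb8* was also the 1 gene lower in both genotypes (−0.45), against 2.93% of all genes, and stood at −0.19 (0.397) in WT alone. Its unadjusted P there was 0.0658 and 0.0685 without the first and the second cKO wounded, 0.0939 without the first WT unwounded and 0.0626 without the second WT wounded library, and 2 genes were lower without the second WT unwounded or the first WT wounded library. The summed level of this list stayed between 10136 and 11553 CPM in the 7 libraries, the cKO unwounded library included at 11293. The medians were 0.06, 0.00 and −0.01. *Hsp90ab1*, its most abundant gene, ranged from 4070.5 to 4531 CPM.

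Of 15 tested integrated and oxidative stress genes, 2 were higher in WT wounding, against 3.18% of all genes. They were *Trib3*, a target of ATF4 (2.14), which kept its call in all 7 leave-one-out fits, and *Ppp1r15a*, which relieves the translational block (0.37). *Ppp1r15a* stood at 0.60 without the first and 0.18 (unadjusted P = 0.414) without the second WT unwounded library, and had an unadjusted P of 0.124 and 0.0735 without the first and the second WT wounded library. Without either of these wounded libraries 1 was higher. The median was 0.27, and 0.0061 without the first WT wounded library, where 1 was lower too.

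In cKO against WT wounded libraries 2 of the 15 were lower, the cystine transporter *Slc7a11* (−1.73) and *Gclc*, an enzyme of glutathione synthesis (−0.68), against 2.08% of all genes. Without the first WT wounded library they stood at −0.89 (unadjusted P = 0.171) and −0.38 (0.189), and 0 were lower. *Slc7a11* stood at −1.11 (0.0869) without the second cKO wounded and −2.82 without the first, where *Gclc* stood at −0.53 (0.0940). The number lower was 4 without the second WT wounded and 1 without the second cKO wounded library. The median was −0.31, and −0.16 without the first WT wounded, −0.16 without the second cKO wounded and −0.47 without the first cKO wounded library. In both genotypes 3 were higher, *Ddit4* (0.81), *Trib3* (1.23) and *Srxn1* (0.44), against 3.69% of all genes. In WT alone *Ddit4* stood at 0.61 (0.0811) and *Srxn1* at 0.19 (0.389). Without the first cKO wounded library 1 was higher, as *Trib3* had an unadjusted P of 0.0793 and *Srxn1* of 0.0552. *Trib3* stood at 0.86 (0.153) without the first WT unwounded, 1.06 (0.0976) without the second WT unwounded and 0.86 (0.137) without the second WT wounded library. *Srxn1* had an unadjusted P of 0.0800 without the second cKO wounded, 0.0641 without the first WT unwounded and 0.100 without the first WT wounded library. The median was 0.13, and with the cKO unwounded library kept it ran from 0.04 without the first WT wounded to 0.25 without the second cKO wounded library. None of the 15 had its highest value in the cKO unwounded library.

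Genes known as AP-1 targets in keratinocytes and wounds were read as the downstream side, and all 31 on the list were tested. Their summed level was 5295 and 6754 CPM in WT unwounded, 7083 and 11093 in WT wounded, 3797 in cKO unwounded and 8747 and 5811 in cKO wounded libraries. The cKO unwounded library, highest for most AP-1 genes, was the lowest here. In WT wounding edgeR called 6 higher and 0 lower at an unadjusted P under 0.05, where it called 3.18% of all genes higher and 1.67% lower. DESeq2 gave 3 and 0, against 500 and 235 of all 14045 genes. The median was 0.46, and 0.00 for all genes. Without the second WT wounded library 2 were higher with a median of 0.08, and without the first 11 were higher and 1 lower with a median of 0.72. The wound keratins *Krt16* (0.64) and *Krt6b* (2.13) were among the 6. They stood at 0.38 (unadjusted P = 0.0723) and 0.62 (0.266) without the second WT wounded library. The groups of *Krt6b* overlapped, with the unwounded libraries at 39.4 and 266 CPM and the wounded ones at 233 and 1075, and it stood at 1.34 without the first and 4.07 without the second WT unwounded library. *Mmp9*, a gelatinase of moving keratinocytes and leukocytes, had 0 counts in both WT unwounded libraries and 8.89 and 38.8 CPM in the WT wounded libraries, at least 45.9-fold above the floor per library in the lower of them. It was the 1 list gene that passed adjustment in edgeR's quasi-likelihood test (adjusted p = 0.0043). It did not without the cKO unwounded library or without the second WT unwounded library.

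In cKO against WT wounded libraries edgeR called 0 of the AP-1 targets higher and 2 lower, where it called 1.96% and 2.08% of all genes. DESeq2 gave 0 and 1, against 279 and 277 of all 14045 genes. The 2 by edgeR were *Mmp9* (−1.76) and the matrix gene *Tnc* (−0.83). *Mmp9* was at 10.4 and 3.29 CPM in cKO, and the higher of these lay above the lower WT wounded value of 8.89. They stood at −0.32 (unadjusted P = 0.680) and −0.47 (0.154) without the second WT wounded library, without the second cKO wounded library at −1.14 (0.152) and −0.43 (0.244), and without the first at −2.86 and −1.37. The median was −0.23. Leaving out the first cKO wounded library gave 8 lower with a median of −0.37, leaving out the second gave 1 with −0.07, and leaving out the first WT wounded library gave 7 with −0.39. Without the second WT wounded library 2 were higher and 1 lower, and the median was 0.19. In both genotypes 13 were higher and 1 lower, against 3.69% and 2.93% of all genes, with a median of 0.79, and 2 were lower without the first WT unwounded library. Within cKO, 14 were at least 2-fold higher and 1 at least 2-fold lower in both wounded libraries, against 5.69% and 3.89% of all genes, a count set by the 1 cKO unwounded library. *Krt16* was the most abundant target on average. It was at 1790.2 and 2009 CPM in WT unwounded, 2452 and 3350.4 in WT wounded, 1344 in cKO unwounded and 2887 and 2152 in cKO wounded libraries.

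Of all these list genes with an unadjusted P under 0.05, cell type markers included, 8 of 39 in WT wounding and 3 of 22 in cKO against WT wounded libraries kept it in all 7 leave-one-out fits. Without the cKO unwounded library 5 of the 39 and 2 of the 22 lost it. In both genotypes 26 of 54 kept it in the 6 fits that hold the cKO unwounded library. The fit without that library is the WT comparison, which did not call 28 of the 54 and called 16 of the 26. *Trib3* and *Mmp9* in WT wounding, *Hspb8*, *Krt1* and *Krt10* in cKO against WT wounded libraries, and *Krt16*, *Krt6a* and *Krt6b* in both genotypes were among those that kept it in all 7. With the cKO unwounded library kept, leaving out 1 library or another turned the sign of the medians of the heat shock and MAP kinase lists in each of the 3 comparisons, and of the immediate early and other bZIP lists in the first 2.

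Markers of cell types moved with some of these comparisons. Of 6 suprabasal markers, 4 were lower in WT wounding, with a median of −0.45, and 5 were higher in cKO against WT wounded libraries, with a median of 0.59. In both genotypes 0 were higher and 3 lower with edgeR and DESeq2 alike, with a median of −0.37. The shares of all genes were 1.67% lower, 1.96% higher and 2.93% lower. Without the first WT wounded library these counts were 1, 2 and 2 and the medians −0.28, 0.37 and −0.24. The first 2 medians were −0.72 and 0.89 without the second WT wounded library. The first count was 2 without the second WT unwounded library, and the second was 3 without the first cKO wounded library. Their summed level was 6379 and 7051 CPM in WT unwounded, 3726 and 5456 in WT wounded, 9576 in cKO unwounded and 6835 and 8465 in cKO wounded libraries. *Krt10*, a keratin of differentiating cells, was higher in cKO at 0.87 (unadjusted P = 6.53e-05, adjusted p of edgeR's quasi-likelihood test 0.459, while DESeq2 called it). *Krt1*, the most abundant of the list on average at 1497 to 3980 CPM, was higher at 0.77. These markers, like *Fos*, *Fosb* and *Atf3*, were highest in the cKO unwounded library as a sum and were higher in both cKO wounded libraries than in both WT wounded ones. Their part in the AP-1 results was not tested. Of 6 basal markers, 1 was lower in WT wounding, *Krt15* (−0.40), and 0 had an unadjusted P under 0.05 in cKO against WT wounded libraries with edgeR or DESeq2. In WT wounding *Krt15* had an unadjusted P of 0.0766 without the first WT unwounded and 0.0564 without the second WT wounded library, and 3 basal markers were higher without the first WT wounded library. Between wounded libraries 1 was lower in cKO without the first cKO wounded and 2 were higher without the second WT wounded library. *Krt15* was lower in both genotypes too (−0.64, and −0.40 in WT alone), where 2 were higher without the second cKO wounded or the first WT wounded library. The medians were 0.12, 0.07 and 0.07.

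Markers of endothelial cells, leukocytes, fibroblasts, mural cells and melanocytes were scarce, and those of hair follicles were not. The shares of all genes to set beside their counts are 3.18% higher and 1.67% lower in WT wounding, 1.96% and 2.08% in cKO against WT wounded libraries, and 3.69% and 2.93% in both genotypes. Endothelial markers summed to 7.36 and 8.81 CPM in WT unwounded, 36.6 and 23.0 in WT wounded, 2.0 in cKO unwounded and 17.7 and 24.7 in cKO wounded libraries, and 4 of 11 were higher in WT wounding and 6 of 11 in both genotypes, 0 lower in either. DESeq2 called 6 and 7 higher and 0 lower, where it called 500 and 632 of all 14045 genes higher. In WT wounding 1 was higher without the first WT wounded and 2 without the first cKO wounded library. Of them *Vwf* was the most abundant on average, at 0.0741 to 7.70 CPM. *Flt1* was lower in cKO against WT wounded libraries (−1.86), with an unadjusted P of 0.193 without the second cKO wounded, 0.0993 without the first WT wounded and 0.206 without the second WT wounded library.

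Leukocyte markers summed to between 25.2 and 51.5 CPM, with *S100a4* the highest on average at 6.12 to 21.7, *Cd74* higher than it in the 4 wounded libraries, and *Cd3e* and *Fcer1g* at 0 throughout. In WT wounding 3 of 9 were higher and 1 lower, as in both genotypes. *Cd74* was among the higher ones at 1.15 and 0.93. It stood at 1.16 with an unadjusted P of 0.0585 in WT wounding without the cKO unwounded library, where 2 of 6 were higher and 1 lower, and at 0.12 (0.822) without the second WT wounded library. In WT wounding 1 was higher without the first WT unwounded, the second WT wounded or either cKO wounded library, and so it was in both genotypes without the first 2 of these or the second cKO wounded library. Fibroblast markers summed to between 88.7 and 148 CPM, led on average by *Thy1*. Of 10 tested, 1 was higher in WT wounding, and 3 were higher and 2 lower in both genotypes. In WT wounding 3 were higher and 1 lower without the first WT unwounded, 0 either way without the second WT unwounded, 2 higher without the first WT wounded, and 0 higher and 1 lower of 9 without the second WT wounded library. In both genotypes 1 of 9 was higher without the second WT wounded library, and 1 was lower without the first cKO wounded library.

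Mural markers summed to between 106 and 142 CPM, most of it from *Notch3*, which keratinocytes also express. Of 7 tested, *Acta2* and *Tagln* were higher in WT wounding and lower in cKO against WT wounded libraries (−2.35 and −2.47). *Tagln* rested on the first WT wounded library, with 11.9 CPM against at most 1.25 in the others, and stood at 0.34 (unadjusted P = 0.853) and 0.42 (0.823) without it. Between wounded libraries *Acta2* stood at −4.12 without the second cKO wounded library, and had an unadjusted P of 0.0678 without the first cKO wounded and 0.0590 without the first WT wounded library, and *Tagln* of 0.0884 and 0.129 without the first and the second cKO wounded library. In both genotypes *Acta2* and *Des* were higher. *Des* had an unadjusted P of 0.103 in WT alone, 0.0731 without the second cKO wounded, 0.0547 without the second WT unwounded and 0.364 without the second WT wounded library.

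Melanocyte markers summed to between 24.8 and 54.0 CPM, led by *Mitf*, with 2 of 5 higher and 1 lower in WT wounding and 1 each way in both genotypes. In WT wounding 1 was higher and 0 lower without either WT unwounded library, 0 and 1 without the first WT wounded and 2 and 0 without the second WT wounded library, and in both genotypes 2 were higher without the first WT unwounded library. Hair follicle markers, led by *Krt79*, summed to between 1344 and 2837 CPM, with 2 of 8 higher and 2 lower in WT wounding, 2 lower in cKO against WT wounded libraries, and 1 higher and 3 lower in both genotypes. DESeq2 called 0 and 2, 0 and 0, and 0 and 3, against 500 and 235, 279 and 277, and 632 and 431 of all genes. The 2 higher in WT and the 2 lower in cKO were the same genes, the hair keratins *Krt25* and *Krt35*, at 10.6 and 10.1 CPM in the first WT wounded library and at most 0.350 CPM in the others. Both were too low to be tested without that library or without the cKO unwounded library, which left 6 markers. Of these, 0 were higher and 3 lower in WT wounding without the first and 0 and 1 without the second of these libraries, and 0 were called in cKO against WT wounded libraries. In WT wounding the number lower was also 1 without the first WT unwounded or the second WT wounded library, and the number higher 1 without the second WT unwounded library. Between wounded libraries 4 were lower in cKO without the second cKO wounded or the second WT wounded library and 1 without the first cKO wounded library. In both genotypes 0 were higher without the second WT unwounded or the first WT wounded library.

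In the cKO against WT wounded comparison 0 leukocyte, fibroblast and melanocyte markers had an unadjusted P under 0.05 with edgeR or DESeq2. Without the second WT wounded library 1 leukocyte and 1 fibroblast marker were higher, 1 leukocyte marker was lower without the first WT wounded library, and 1 fibroblast marker was lower without the second cKO wounded library. The part of these cells in the AP-1 results was not tested.

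Open chromatin was read from the deposited peak lists as peaks in or within 5 kb of each gene. In the WT unwounded list, of 10769 peaks, 5 of the 10 genes had one, and so did 34.8% of 21911 protein-coding genes. In the WT wounded list, of 36872 peaks, all 10 had one, against 62.3%. The cKO unwounded list, of 29364 peaks, covered 8 of the 10, against 58.5%. The cKO wounded list, of 22474 peaks, covered 7 of the 10, against 49.2%. The lists themselves differ in length. With each list limited to its 10769 strongest peaks the counts were 5, 2, 2 and 3 of the 10, against 34.8%, 31.4%, 32.9% and 31.8% of all genes. No cause of the different list lengths was tested.

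Merged over the 4 conditions, the peaks formed 22 regions. Of these, 7 were listed in all 4 conditions, and 22.2% of all regions in the data were. Another 6 were listed in WT wounded alone, against 22.9% of all regions. A further 4 were in WT wounded and cKO unwounded alone, against 13.9%. Absence from a list means only that no peak passed the authors' threshold there.

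**Figure D3:**
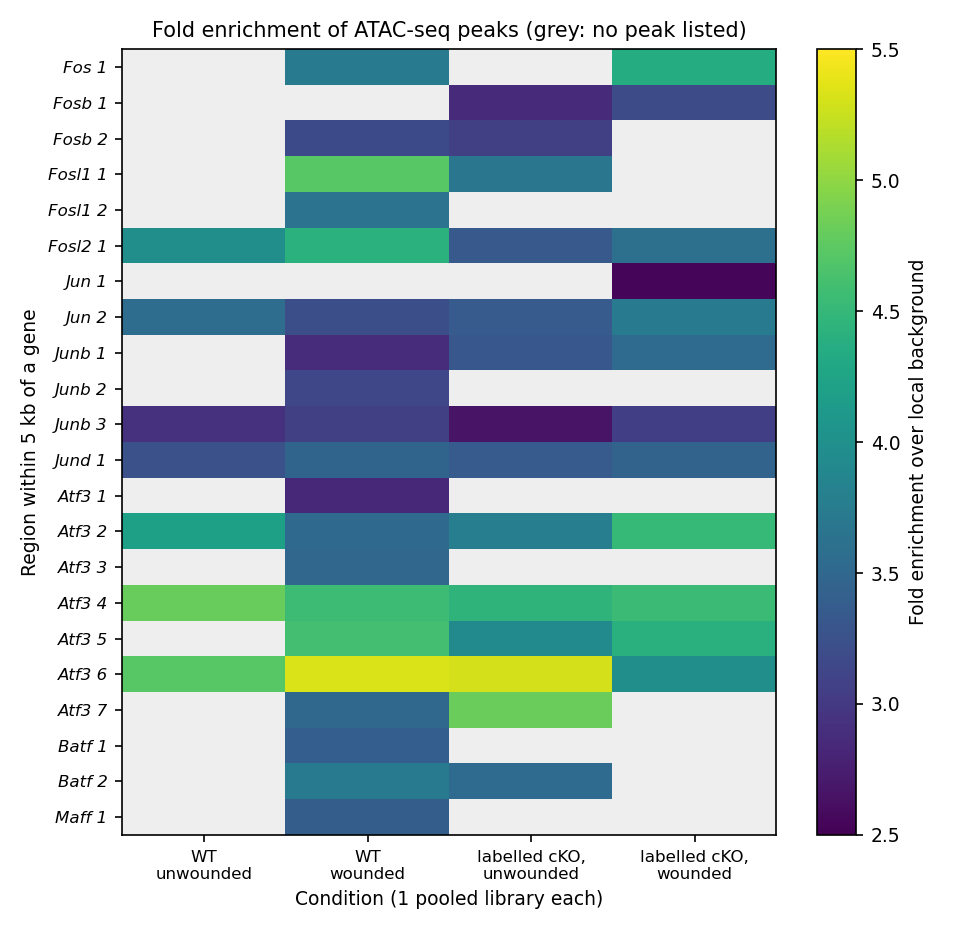
Fold enrichment over background of each region near the genes in each ATAC-seq condition, with empty cells where no peak was listed. Values run up to 5.33, at a region in an intron of *Atf3* in WT wounded cells.

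*Fos* had 1 region, at chr12:85473583-85474075, in the wounded lists and in neither unwounded list. The WT wounded peak (fold enrichment 3.73) covered the gene start, and the cKO wounded peak (4.35), chr12:85473629-85473835, ended upstream of it. *Fosb* had 2, 1 of them upstream at chr7:19310112-19310407, listed in WT wounded (3.18) and cKO unwounded cells (3.07). *Fosl1* had 2, and the one in its UTR at chr19:5447559-5447872 was listed in WT wounded (4.72) and cKO unwounded cells (3.68). *Fosl2* had 1 region at a gene start in all 4 lists, at chr5:32135484-32136059.

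*Jun* had a region over its start at chr4:95052003-95053497 in all 4 lists, with fold enrichments from 3.22 to 3.73, and a second, downstream, in cKO wounded cells alone. *Jund* had 1 over its start at chr8:70698515-70699653 in all 4 lists. *Junb* had 3 regions. Of these, chr8:84979716-84980358, upstream, was in all 4 lists, chr8:84978662-84978880, over the gene start, was in WT wounded alone, and chr8:84976297-84976702 was in the other lists but not in WT unwounded. *Batf*, whose mRNA was at the floor, still had 2 intron regions, and *Maff* had 1, at chr15:79347468-79348094, in WT wounded alone.

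*Atf3* had the most, with 7 regions, and 3 of them, at chr1:191183119-191183680, chr1:191193309-191194231 and chr1:191215963-191216673, were in all 4 lists. Annotated *Atf3* transcripts, on the minus strand, start either at base 191218039 or at base 191183340. The first of these shared regions covers the inner start, and no listed peak covered the distal start. Of the 4 further regions of *Atf3*, 1 lay in the UTR, 2 in introns and 1 upstream, and they were listed in 1 to 3 conditions.

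**Figure D4:**
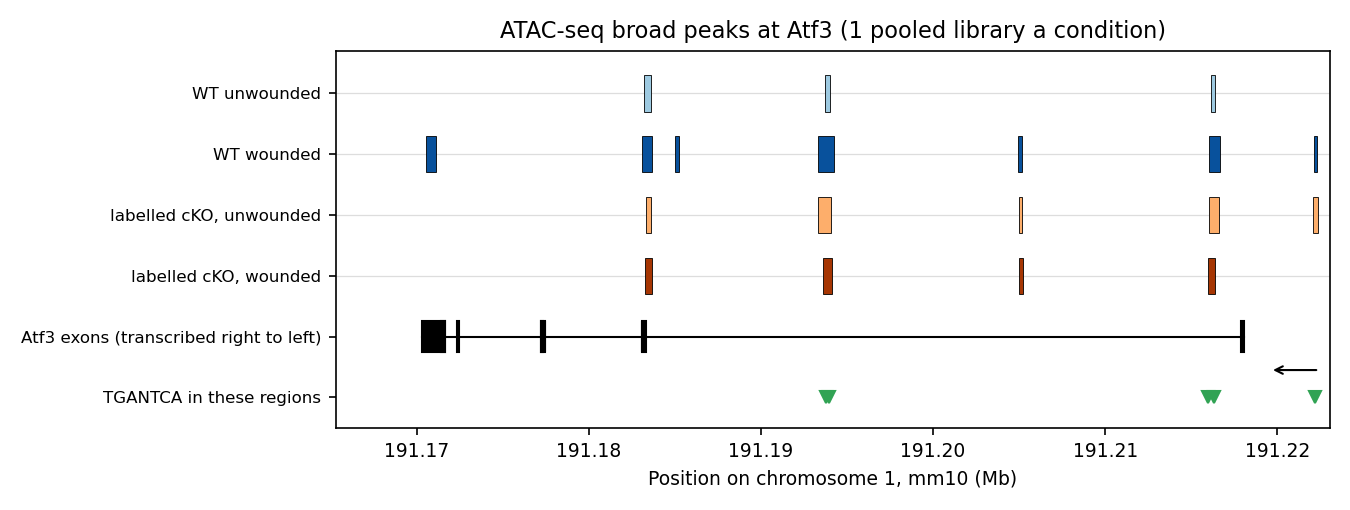
Map of *Atf3* on chromosome 1 (mm10), with exons and the listed peaks of each ATAC-seq condition along the genomic position in Mb, and triangles at TGANTCA matches. A total of 3 regions appear in all 4 conditions, and 1 of them lies over the inner transcript start.

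Motifs were searched on both strands of the regions and of RefSeq promoters, which span 250 bases before to 50 after a start. They were the TRE (TGANTCA, bound by AP-1), the CRE (TGACGTCA, bound by CREB and ATF factors), the CArG box (bound by SRF) and a GRHL core (AACCNGTT). Promoters were found for 9 of the 10 genes, all but *Fosl1*, with 3 for *Maff*. The TRE was in 7.81% of all 32817 promoters, the CRE in 1.79%, the CArG box in 1.63% and the GRHL core in 2.08%. Of all listed peaks, which vary in length, 27.2% to 33.6% held a TRE, 1.88% to 2.63% a CRE, 1.82% to 2.30% a CArG box and 3.97% to 5.63% a GRHL core. The TRE and the CRE share their outer letters, and neither contains the other. A match is a description of letters and not evidence of binding.

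The *Fos* promoter is shown because it lies within the WT wounded peak and in part within the cKO wounded peak, with no peak there in the unwounded lists. None of the 4 motifs is in this window. It is chr12:85473640-85473939 on the plus strand of GRCm38.p6, from RefSeq.
Fos: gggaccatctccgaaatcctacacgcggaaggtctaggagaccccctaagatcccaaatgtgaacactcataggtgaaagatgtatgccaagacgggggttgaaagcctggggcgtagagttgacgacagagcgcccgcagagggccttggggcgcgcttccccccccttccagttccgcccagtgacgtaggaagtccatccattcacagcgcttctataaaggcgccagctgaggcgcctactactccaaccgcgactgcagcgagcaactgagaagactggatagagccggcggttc

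The promoter of *Maff* that overlaps its region, listed in WT wounded cells alone, holds a full CRE, 29 bases before the start and shown in capitals. It is chr15:79347270-79347569 on the plus strand of GRCm38.p6, from RefSeq.
Maff: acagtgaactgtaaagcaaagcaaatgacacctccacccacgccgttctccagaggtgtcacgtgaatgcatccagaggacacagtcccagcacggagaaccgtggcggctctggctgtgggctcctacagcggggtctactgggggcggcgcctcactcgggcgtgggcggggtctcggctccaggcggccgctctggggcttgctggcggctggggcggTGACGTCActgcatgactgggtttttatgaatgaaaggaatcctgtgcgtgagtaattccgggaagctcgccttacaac
Another promoter match was in *Fosl2*, a GRHL core AACCGGTT at 4 bases before the start, outside its listed region.

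CArG boxes, the SRF sites of growth-factor induction, were in 3 regions, 1 upstream of *Fosb* and 2 near *Junb*. They are shown in capitals with 40 bases on each side, on the plus strand of mm10, at chr7:19310268-19310357, chr8:84976584-84976673 and chr8:84980119-84980208. The box of *Junb* region 1 lies outside the cKO wounded peak there, and that of region 3 runs past the end of the WT unwounded peak.
Fosb region: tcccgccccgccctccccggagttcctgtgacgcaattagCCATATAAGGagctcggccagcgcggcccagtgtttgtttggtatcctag
Junb region 1: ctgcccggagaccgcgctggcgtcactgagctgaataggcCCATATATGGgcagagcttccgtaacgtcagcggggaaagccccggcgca
Junb region 3: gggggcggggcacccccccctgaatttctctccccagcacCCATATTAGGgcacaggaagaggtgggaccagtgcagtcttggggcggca

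*Atf3* held most of the TRE matches, in 3 of its regions, and these AP-1 letters lie in open chromatin of a gene of the same family. One match from each is shown in capitals, on the plus strand of mm10, from chr1:191193760-191193846 and chr1:191216265-191216351, whose regions were in all 4 lists, and from chr1:191222148-191222234, upstream, whose region was in WT wounded and cKO unwounded lists.
Atf3 region 4: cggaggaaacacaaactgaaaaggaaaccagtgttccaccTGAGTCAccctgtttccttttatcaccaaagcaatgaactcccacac
Atf3 region 6: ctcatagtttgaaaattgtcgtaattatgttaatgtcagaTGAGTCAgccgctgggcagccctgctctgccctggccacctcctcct
Atf3 region 7: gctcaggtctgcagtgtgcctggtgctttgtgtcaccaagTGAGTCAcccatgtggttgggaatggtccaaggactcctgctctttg
The *Fosl2* region held a TRE too, and the *Jund* region a CRE, each outside the cKO wounded peak there.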

How the data were processed

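RNA was measured in 7 libraries and open chromatin in 4. The deposited RNA files hold raw counts per gene symbol. The authors name FastQC and kallisto, but which step made the counts is not stated, nor is strand. Reads not unique (3.46% to 4.74%) and ambiguous (1.34% to 1.45%) were left out. The ATAC-seq files are MACS2 broad peak lists on mm10 in which the authors give signal as fold enrichment (a ratio) and p and q as −log10 values.

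CPM used gene counts alone. Genes were tested with edgeR 4.0.16 (TMM, filterByExpr, quasi-likelihood F test, Benjamini-Hochberg) in R 4.3.3 over all 7 libraries, 14045 of 24421 genes. Comparisons were WT wounded against unwounded, cKO against WT wounded, and wounding with a genotype term, and for cKO wounded against unwounded a 2-fold rule without a test. Standard errors (SE) were derived from that F test, as the absolute log2 fold change divided by the square root of F. Log2 CPM used a prior count of 2. DESeq2 1.42.0, other scalings and filters, a replicate block, stricter peaks and leaving out each library were alternatives. Peaks were joined to GENCODE vM21 genes with bedtools 2.31.1, pandas 2.3.3 and Python 3.11.15. The fit was tested on simulated data. Named genes were the 10 members, *Grhl3*, in each list the most abundant gene and up to 3 with the smallest unadjusted P under 0.05 in each test, and genes among the 3 most like a leading member, of those with a mean log2 CPM of at least 3. *Xist*, *Cd3e*, *Fcer1g*, *Ccdc85b* and *Prdx2* were named after their values were seen. Members and lists were chosen with earlier results of these data known.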

Additional observations from a re-analysis of the deposited data

Results flagged for a closer look

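Among the 84 tested genes named by rule, 11 had both WT wounded libraries on one side of the WT unwounded libraries and both cKO wounded libraries on the other side of the lone cKO unwounded library. Over all tested genes, 4.60% were higher in WT and lower in cKO in this way and 5.98% the reverse. Many of the named genes were picked for a small unadjusted P in these same libraries. Their count therefore cannot be set against the shares of all genes. Values are the log2 fold change in WT and the mean log2 difference in cKO. The difference between the genotypes was not tested for any of them, and the cKO values all rest on 1 unwounded library that stands apart. *Junb* had 0.27 and −0.57. Among immediate early genes, *Egr1* had 0.23 and −0.89, *Nr4a1* 0.36 and −0.53, *Nr4a2* 0.91 and −0.64, *Nr4a3* 0.92 and −0.58, *Btg2* 0.39 and −0.99, and *Dusp1* 0.27 and −0.84. The SRF coactivator *Mkl1* had 0.16 and −0.28, and the aminopeptidase gene *Lnpep* 0.13 and −0.22. In the opposite sense, *Cebpa* had −0.38 and 0.091, and the desmosomal gene *Dsc1* had −0.63 and 0.24.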

How the results depend on the processing

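Groups held 2 libraries or 1 and ATAC-seq had no replicates. Replicates differed beyond counting error, with a chi-squared per degree of freedom of 30.5 to 41.9. In both genotypes, leaving out the cKO unwounded library leaves the WT comparison and so does not check the joint values. No setting gave any of the 9 tested genes an adjusted p under 0.05. The cause was not tested for any change given here. The other filters, scalings and prior counts gave no change of sign beyond those given here.

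Genes with an adjusted p under 0.05 numbered, in WT wounding, 96 without a filter, 0 with at least 10 counts in every library, 24 by DESeq2, 0 with only the 4 libraries and 0 to 29 leaving out 1 library. In cKO against WT wounded they numbered 51 without a filter, 3 by DESeq2 and 0 to 21 leaving out 1, and genes with an unadjusted P under 0.05 ran from 420 to 855. In both genotypes they numbered 305 without a filter, 2 with at least 10 counts, 126 by DESeq2 and 0 to 119 leaving out 1.

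Of the 9 genes, those with an unadjusted P under 0.05 in WT wounding numbered 1 without a filter, 1 with only the 4 libraries and 0 to 2 leaving out 1. They numbered 1 to 5 in cKO against WT wounded leaving out 1. In both genotypes they numbered 1 with RLE, 0 with at least 10 counts and 0 to 5 leaving out 1. Within cKO a rule of 1.5-fold took 2603 genes, 3 of the 9, and leaving out a wounded library left 1 against 1, where the 2-fold rule took 2567 to 2732 genes and 0 to 2 of the 9.

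Whether libraries of the same number are paired is not stated, and across 11080 genes, which are not independent, the log2 difference between libraries 1 and 2 correlated at 0.304 between WT unwounded and WT wounded and at −0.105 between WT wounded and cKO wounded. The cKO unwounded library is titled 2 while its file name says 1. It held 14854 counts of *Xist* and the cKO wounded libraries held 19 and 25. By sex, then, it shares an animal with neither of them, whichever number is right. The block used the title, which bears on the both-genotypes value alone, and so joined it to a wounded library of another animal. With a replicate block, edgeR called 719, 596 and 888 genes at an unadjusted P under 0.05 in the 3 comparisons and 6, 0 and 4 after adjustment, with 1 of the 9 called in both genotypes. A crossed replicate block, added after seeing the data, called 823 genes at an unadjusted P under 0.05 and 21 after adjustment in cKO against WT wounded.

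With peaks of q at most 0.01, 3, 8, 5 and 4 of the 10 genes had a peak in WT unwounded, WT wounded, cKO unwounded and cKO wounded lists, against 29.9%, 58.1%, 49.4% and 44.7% of all genes. With fold enrichment of at least 4 these were 1, 3, 1 and 2, against 23.9%, 49.6%, 40.7% and 40.3%, and with lists of equal length 5, 2, 2 and 3, against 34.8%, 31.4%, 32.9% and 31.8%.

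With library totals alone, WT wounding gave *Fosl2* −0.0040 and *Jund* −0.012. Leaving out 1 library gave these log2 ranges. In WT wounding *Fos* ran from −0.16 to 0.091, *Fosb* from −0.21 to 0.13, *Fosl2* from −0.22 to 0.21, *Jund* from −0.17 to 0.22, *Atf3* from −0.13 to 0.46, *Maff* from −0.23 to 0.61, *Maf* from −0.062 to 1.04 and *Elk3* from −0.046 to 1.81. In cKO against WT wounded *Fosl1* ran from −0.65 to 0.44, *Fosl2* from −0.26 to 0.18, *Junb* from −0.29 to 0.32, *Jund* from −0.19 to 0.52, *Maff* from −0.27 to 0.10 and *Tagln* from −3.36 to 0.42. In both genotypes *Fosl2* ran from −0.19 to 0.024, *Jun* from −0.23 to 0.25, *Junb* from −0.18 to 0.28, *Jund* from −0.55 to 0.014, *Atf3* from −0.32 to 0.14 and *Maff* from −0.41 to 0.13. The upper ends of the last 5 are WT values, from the fit without the cKO unwounded library. With it kept they were −0.011, 0.095, −0.19, −0.049 and −0.020. Within cKO *Fosl1* ran from −0.75 to 0.35.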
